A study of Mus musculus with 6 samples.

Results

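Messenger RNAs of 10 genes of glutathione synthesis, its recycling and the glutathione peroxidase family were followed in mouse liver under the MCD diet. This diet is deficient in methionine and choline. The genes were Gclc, Gclm and Gss (synthesis), Gsr and G6pdx (reduction and its NADPH), and the glutathione peroxidases Gpx1, Gpx3, Gpx4, Gpx7 and Gpx8. They were taken by symbol from the table of all pools, so they are 10 of its 40481 genes. The rule itself uses no measured value, but the list was drawn up with earlier results of these data known.

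All mice were males on a C57BL/6 background that carried Mttp f/f, floxed alleles of the microsomal triglyceride transfer protein gene, and Villin Cre ER(T2). This tamoxifen-activated recombinase is driven by the Villin promoter of the intestinal epithelium. Mice given tamoxifen are Mttp-IKO, and littermates given vehicle are the controls, labelled wild type (WT), although they carry the same alleles. Mice aged 12 to 16 weeks ate the MCD diet for 3 weeks, from 3 weeks after injection, and livers were taken after a fast of 4 h by the labels or 4 to 6 h by the study's methods. Each genotype has 3 libraries, and each library is a pool of liver RNA from 3 to 4 mice, so mice vary more than these pools show. Controls received no tamoxifen, so the drug and the deletion cannot be told apart. Liver Mttp lies outside the targeted tissue and therefore gives no check of the labels. It was at 90.3 to 185 CPM (read counts relative to library size) in WT pools and 128 to 160.4 CPM in Mttp-IKO pools.

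Glutathione is a tripeptide of glutamate, cysteine and glycine and the most abundant thiol of liver cells. Glutamate-cysteine ligase, made of a catalytic subunit (Gclc) and a modifier subunit (Gclm), joins glutamate to cysteine, and glutathione synthetase (Gss) adds glycine. Glutathione peroxidases such as Gpx1 and Gpx4 use glutathione to reduce hydrogen peroxide or lipid hydroperoxides. Glutathione reductase (Gsr) restores the reduced form with NADPH, to which glucose-6-phosphate dehydrogenase (G6pdx) contributes. Methionine, which the diet lacks, is a source of the cysteine.

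The 5 peroxidases differ at the residue that attacks the peroxide. In Gpx1, Gpx3 and Gpx4 it is selenocysteine, inserted at a TGA codon that otherwise ends translation, and in Gpx7 and Gpx8 it is cysteine. The coding sequence around this codon is shown because it divides the family into its selenium-dependent and selenium-independent members, which are described in turn below. The codon stands in capitals, within 27 bases read 5′ to 3′ on the coding strand (GENCODE M21 transcripts, GRCm38).
Gpx1: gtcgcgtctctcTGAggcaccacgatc
Gpx3: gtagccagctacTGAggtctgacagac
Gpx4: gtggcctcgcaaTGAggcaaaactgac
Gpx7: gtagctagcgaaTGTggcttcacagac
Gpx8: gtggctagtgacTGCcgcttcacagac
The codons are number 47 of 201 in Gpx1 (chr9:108339451-108339453, plus strand), 73 of 226 in Gpx3 (chr11:54907256-54907258, plus strand) and 73 of 197 in Gpx4 (chr10:80054737-80054739, plus strand). Those of Gpx7 (chr4:108403430-108403432, minus strand) and Gpx8 (chr13:113045661-113045663, minus strand) are number 56 of 186 and 79 of 209. The TGA is annotated as selenocysteine in all 3 of the first group. Of all pairs of the translated proteins, Gpx1 and Gpx3 were the most alike (52.3% of aligned residues identical), followed by Gpx7 and Gpx8 (48.9%). Gpx3 and Gpx8 were the least alike (30.5%).

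Pools held 25271585 to 36238734 reads on genes, and a count of 0 allows up to 0.0828 to 0.119 CPM, counting error only. Levels below are CPM after TMM scaling, edgeR's correction for library composition. Mttp-IKO pool 3 stood apart: small noncoding RNAs (snRNA, snoRNA, scaRNA, miRNA, misc_RNA and rRNA genes) took 0.290% of its reads against 1.92% to 3.51% elsewhere. Genes of 1000 to 2000 nt took 15.9% of its mRNA reads against 19.5% to 20.6%, and the 5 peroxidase genes are 1016 to 1813 nt long. Results are therefore also given without this pool.

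Of the 10 genes, Gpx1 and Gpx7 were lower in Mttp-IKO liver past the threshold (adjusted p under 0.05, edgeR), and no gene was higher. Both were also called without Mttp-IKO pool 3 or WT pool 2, and neither was called when any other single pool was left out. Across all 17287 genes tested, 3.09% were lower and 4.01% changed in either direction by the same rule. In 5 of the 10 genes (Gclm, Gpx1, Gpx4, Gpx7 and Gpx8) every Mttp-IKO pool lay below every WT pool, against 16.5% of all genes tested. The median log2 fold change was -1.18 over the 5 peroxidases and -0.18 over the other 5 genes, beside 0.0059 over all genes tested. All 10 genes passed the filter on low counts. Gpx8 passed it through its 3 WT pools, since Mttp-IKO pool 3 was under the minimum of 0.311 CPM, taken before TMM scaling. Its own difference thus helped it into the test. In bulk liver RNA, fewer cells of a type and less RNA per cell cannot be told apart.

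**Figure D1:**
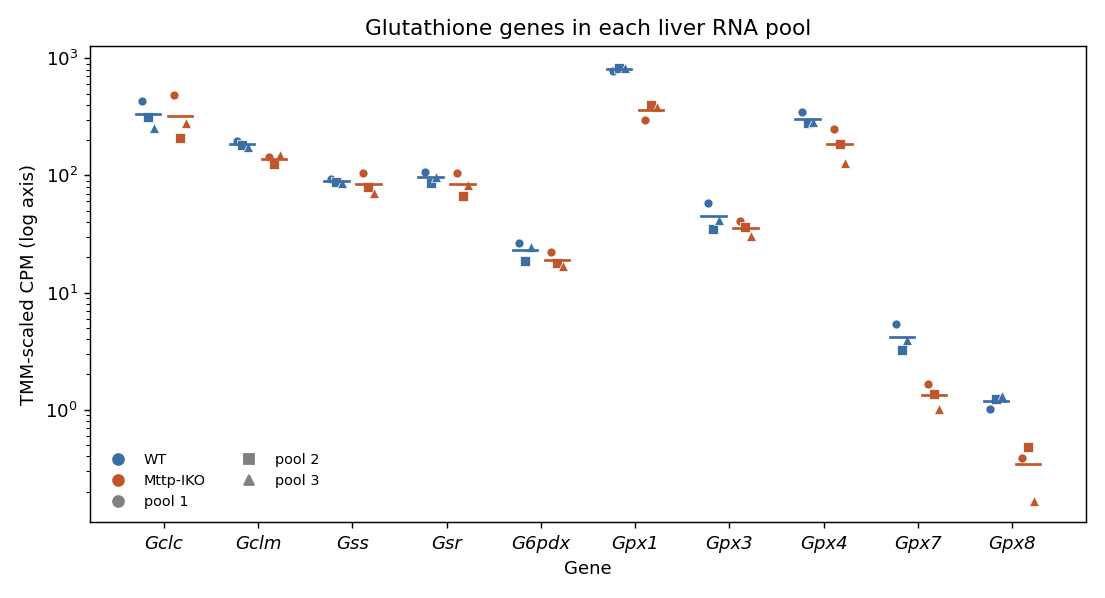
Level of each of the 10 genes in every liver RNA pool, as TMM-scaled CPM on a log axis. Points are pools (shape gives the pool number), bars are means of 3 pools, and the colours give the genotype. The genotypes do not overlap for Gclm, Gpx1, Gpx4, Gpx7 and Gpx8, with Mttp-IKO lower in each.

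Per length of gene, as TMM-scaled RPKM (CPM per kilobase of deposited gene length), Gpx1 was the most abundant of the 10 in every pool. It had 779 ± 30.6 RPKM (SD, n = 3) in WT and 345 ± 54.1 RPKM in Mttp-IKO pools. Gpx4 had 177 ± 22.2 RPKM in WT pools, and Gclc had 97.2 ± 26.0 RPKM. Gsr (34.9 ± 3.80 RPKM) and Gclm (33.2 ± 1.79 RPKM) overlapped in WT, as did Gclm and Gpx3 (24.7 ± 6.56 RPKM). Gss (15.1 ± 0.677 RPKM) and G6pdx (7.52 ± 1.37 RPKM) were lower. At the low end, Gpx7 had 3.24 ± 0.848 RPKM and Gpx8 had 1.17 ± 0.152 RPKM in WT. Places 6 to 10 in this order (Gpx3, Gss, G6pdx, Gpx7, Gpx8) were the same in all 6 pools. Gpx4 ranked next after Gpx1 and was followed by Gclc, except in Mttp-IKO pool 3, where Gclc (82.4 RPKM) exceeded Gpx4 (74.5 RPKM). The deposited length of Gpx4 is 1724 nt, while the transcript that gave its codon above is 959 nt long. Its level per length, and its place against Gclc in that pool, therefore depend on the length used.

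Of the synthesis genes, Gclc (ENSMUSG00000032350, chromosome 9, 77754535 to 77794485) had 429, 315 and 254 CPM in WT pools 1, 2 and 3. In Mttp-IKO pools 1, 2 and 3 it had 482, 207 and 282 CPM. The highest and the lowest value were both in Mttp-IKO pools, and the genotypes overlapped. Its log2 fold change was -0.04, with a standard error of 0.332, a 95% interval of -0.81 to 0.72 and adjusted p = 0.959 (edgeR). Leaving out single pools moved it from -0.44 to 0.20, so its sign rests on single pools. It was 0.071 once each library's trend with gene length was removed, beside a median of 0.12 over all genes in that fit.

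Gclm (ENSMUSG00000028124, chromosome 3, 122245557 to 122269984) varied less. It had 195, 181 and 176 CPM in WT pools, against 144, 124 and 149 CPM in Mttp-IKO pools. All WT pools lay above all Mttp-IKO pools, with means of 184 ± 9.92 CPM and 139 ± 13.1 CPM. Its log2 fold change of -0.41 (standard error 0.156, 95% interval -0.76 to -0.047) had an unadjusted p of 0.0310 and did not pass the threshold (adjusted p = 0.173, edgeR). Without Mttp-IKO pool 3 it was -0.46 (adjusted p = 0.0816, edgeR). The gene overlaps Gm17494 on the opposite strand, which had 45 to 106 reads a pool against 3556 to 7877 for Gclm.

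Gss (ENSMUSG00000027610, chromosome 2, 155563181 to 155592810) had 93.9, 87.5 and 86.5 CPM in WT pools. Its Mttp-IKO values, 106, 79.9 and 70.4 CPM, lay on both sides of these. This gave a log2 fold change of -0.065 with a 95% interval of -0.49 to 0.35 (adjusted p = 0.863, edgeR). Removing the length trend gave 0.023, beside a median of 0.12 over all genes in that fit, and leaving out Mttp-IKO pool 3 gave 0.058. Gss overlaps Acss2, an acetyl-CoA synthetase gene on the opposite strand, which had 889 to 1980 reads in WT and 1745 to 3807 reads in Mttp-IKO pools. Whether strand was used in counting is not stated, so reads shared by the pair may have been left out as ambiguous, or mixed. The overlap was found from the start and end of each gene, not from exons.

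The ratio of Gclm to Gclc was taken within each pool, where scaling between libraries cancels, as a log2 ratio of RPKM. It was -1.83, -1.50 and -1.22 in WT and -2.44, -1.44 and -1.62 in Mttp-IKO pools. The genotypes overlapped, and the difference of -0.31 gave p = 0.6 by a two-sided exact permutation test (0.6 after Benjamini-Hochberg adjustment over 3 ratios). With 3 pools against 3 such a test cannot go below 0.1. Without Mttp-IKO pool 1, the difference was -0.0078.

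In the recycling arm, Gsr (ENSMUSG00000031584, chromosome 8, 33652523 to 33698163) had 107, 85.6 and 96.3 CPM in WT and 104, 67.2 and 82.6 CPM in Mttp-IKO pools. The genotypes overlapped, and the log2 fold change was -0.18 (standard error 0.196, 95% interval -0.63 to 0.27, adjusted p = 0.611, edgeR). It was -0.16 when Mttp-IKO pool 3 was left out, -0.042 without Mttp-IKO pool 2, -0.36 without Mttp-IKO pool 1 and -0.058 with the length trend removed.

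G6pdx (ENSMUSG00000031400, chromosome X, 74409483 to 74429194) had 26.7, 18.5 and 24.3 CPM in WT and 22.4, 17.7 and 16.9 CPM in Mttp-IKO pools. Its log2 fold change was -0.28 (standard error 0.195, 95% interval -0.73 to 0.16, adjusted p = 0.420, edgeR), and WT pool 2 lay within the range of the Mttp-IKO pools. The value was -0.20 when Mttp-IKO pool 3 was left out, -0.44 without WT pool 2 and -0.12 with length and GC trends removed. Ikbkg, a gene of NF-κB signaling with 1329 to 2980 reads a pool, overlaps it on the opposite strand, so the same doubt about strand applies. The near-identical copy G6pd2 had 0 to 4 reads a pool.

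Among the selenocysteine peroxidases, Gpx1 (ENSMUSG00000063856, chromosome 9, 108339080 to 108340338), the main cytosolic enzyme against hydrogen peroxide, had 774, 833 and 825 CPM in WT pools. It had 295, 401 and 381 CPM in Mttp-IKO pools. The WT pools were close together (coefficient of variation 3.93%), and the highest Mttp-IKO pool lay far below the lowest of them. The log2 fold change was -1.18 (standard error 0.189, 95% interval -1.61 to -0.74, adjusted p = 0.0228, edgeR), a level 55.7% lower. Without Mttp-IKO pool 3 it was -1.22 (adjusted p = 0.0208, edgeR). Across the 6 fits that each left out a pool, the value stayed between -1.26 and -1.05. It passed the threshold without WT pool 2 or Mttp-IKO pool 3 and missed it without WT pool 1, WT pool 3, Mttp-IKO pool 1 or Mttp-IKO pool 2, where adjusted p was 0.0613 to 0.0998. With the trends of length and GC content both removed, an alternative added after the data had been seen, it was -0.85 with adjusted p = 0.0670 (edgeR).

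Gpx4 (ENSMUSG00000075706, chromosome 10, 80047166 to 80056439), which reduces phospholipid hydroperoxides and holds back ferroptosis, had 350, 283 and 284 CPM in WT pools. It had 249, 185 and 128 CPM in Mttp-IKO pools, the lowest in pool 3, and the genotypes did not overlap. Its log2 fold change of -0.71 (standard error 0.253, 95% interval -1.29 to -0.12) had an unadjusted p of 0.0235 and did not pass the threshold (adjusted p = 0.152, edgeR). Without Mttp-IKO pool 3 it was -0.49 (adjusted p = 0.141, edgeR).

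Gpx3 (ENSMUSG00000018339, chromosome 11, 54902453 to 54910377), the secreted plasma peroxidase that is made mainly in kidney, had 58.0, 34.9 and 41.5 CPM in WT and 41.1, 36.2 and 30.4 CPM in Mttp-IKO pools. The genotypes overlapped, with a log2 fold change of -0.32 (95% interval -0.82 to 0.18, adjusted p = 0.414, edgeR) that was -0.21 without Mttp-IKO pool 3. It was -0.11 without WT pool 1, -0.17 with the length trend removed and -0.070 with length and GC trends removed. Of the kidney markers, Umod had no read in any pool and Slc12a1 had 1 read in 1 pool, and the 4 kidney markers together had at most 2 reads a pool.

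The cysteine peroxidases Gpx7 and Gpx8, both of the endoplasmic reticulum, had the largest fold changes of the 10 and the lowest levels. Gpx7 (ENSMUSG00000028597, chromosome 4, 108400390 to 108406961) had 5.37, 3.24 and 3.90 CPM in WT and 1.64, 1.37 and 1.01 CPM in Mttp-IKO pools. The lowest WT pool was above the highest Mttp-IKO pool, and the means were 4.17 ± 1.09 CPM and 1.34 ± 0.319 CPM. The log2 fold change was -1.63 (standard error 0.311, 95% interval -2.35 to -0.91, adjusted p = 0.0344, edgeR), from 117 to 217 reads a pool in WT and 24 to 51 in Mttp-IKO. Without Mttp-IKO pool 3 it was -1.47 (adjusted p = 0.0473, edgeR). It missed the threshold without WT pool 1, WT pool 3, Mttp-IKO pool 1 or Mttp-IKO pool 2 (adjusted p 0.0702 to 0.144), where the log2 fold change was -1.80 to -1.42.

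Gpx8 (ENSMUSG00000021760, chromosome 13, 113042763 to 113046388) had 1.02, 1.25 and 1.31 CPM in WT and 0.386, 0.480 and 0.168 CPM in Mttp-IKO pools. These are 41 to 45 reads against 12, 14 and 4 reads, and the genotypes did not overlap. The log2 fold change of -1.75 (standard error 0.435, 95% interval -2.75 to -0.75) had an unadjusted p of 0.00368 and just missed the threshold (adjusted p = 0.0658, edgeR). It passed with total counts as the scaling (adjusted p = 0.0408, edgeR) and with DESeq2 (adjusted p = 0.0104). Without Mttp-IKO pool 3 it was -1.45 (adjusted p = 0.0716, edgeR).

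**Figure D2:**
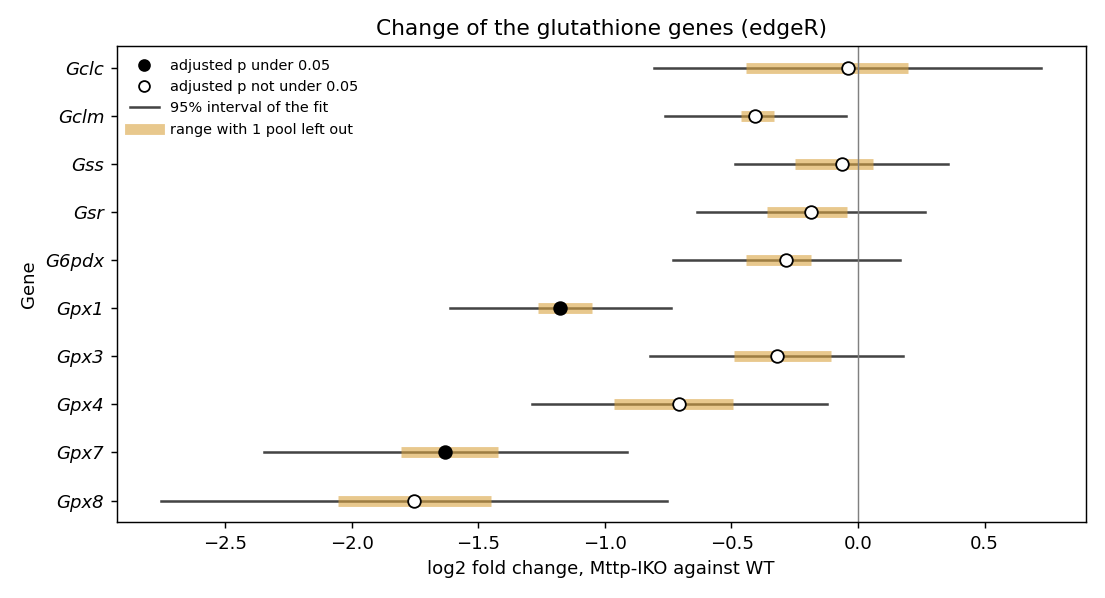
The log2 fold change of each of the 10 genes, Mttp-IKO against WT (edgeR). Filled circles passed an adjusted p of 0.05, thin lines are 95% intervals, and thick bars span the values from leaving out single pools. The bars of Gclc and Gss cross 0, and those of Gpx1 and Gpx7 lie between -1.26 and -1.05 and between -1.80 and -1.42.

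The summed level of the 5 peroxidases per length was 984, 987 and 985 RPKM in WT pools. In Mttp-IKO pools it was 452, 514 and 458 RPKM. This sum and the shares below use deposited gene lengths, so they depend on the length taken for Gpx4. Gpx1 made up 75.6%, 81.1% and 80.5% of this sum in WT and 62.7%, 75.0% and 79.9% in Mttp-IKO pools, and Gpx4 made up 16.6% to 20.6% and 16.3% to 31.9%. Both ranges overlapped between genotypes, while the share of Gpx3 was 1.95% to 3.25% in WT and 3.66% to 5.01% in Mttp-IKO pools, without overlap. Gpx7 and Gpx8 together stayed a small part. Gpx7 was at 0.255% to 0.424% in WT and 0.170% to 0.282% in Mttp-IKO pools, with overlap. Gpx8 was at 0.102% to 0.131% in WT and 0.0360% to 0.0919% in Mttp-IKO pools, lower without overlap.

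The ratio of Gpx1 to Gpx4 tells whether both selenoprotein peroxidases were lower to the same degree. As log2 RPKM ratios it was 1.87, 2.29 and 2.27 in WT and 0.97, 1.85 and 2.30 in Mttp-IKO pools. The length taken for Gpx4 moves these values alike in every pool and leaves the difference between genotypes as it is. The 3 Mttp-IKO pools were spread over more than the whole WT range, with pool 1 the lowest and pool 3 the highest of all 6. The difference of -0.44 gave p = 0.5 (two-sided exact permutation test, 0.6 after adjustment over 3 ratios). It was -0.071 without Mttp-IKO pool 1. Without Mttp-IKO pool 3 it was -0.73, and the genotypes did not overlap (p = 0.1, two-sided exact permutation test, the lowest these pools allow).

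For Gpx7 to Gpx8, the log2 ratio was 2.06, 1.04 and 1.23 in WT and 1.74, 1.17 and 2.24 in Mttp-IKO pools. The genotypes overlapped, and the difference was 0.28 (p = 0.6, two-sided exact permutation test, 0.6 after adjustment). It was 0.016 without Mttp-IKO pool 3 and 0.59 without WT pool 1. A p over the threshold in these 3 ratios does not show that the paired genes changed alike, since no arrangement of these pools gives a p under 0.1.

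**Figure D3:**
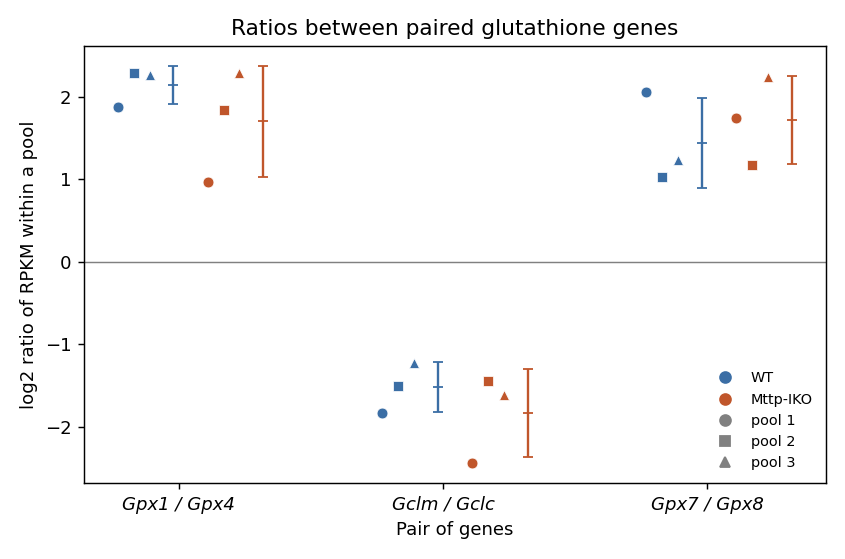
Ratios between paired glutathione genes within each pool, as log2 of the ratio of RPKM. Points are pools (shape gives the pool number), and bars beside them are means with SD (n = 3). For all 3 pairs the genotypes overlap, and the Gpx1 to Gpx4 ratio of Mttp-IKO pools runs from 0.97 to 2.30.

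Pools also differed within a genotype, and the same pool was often the highest or the lowest for these genes. How often this held over all genes tested was not counted. WT pool 1 had the highest WT value for 8 of the 10 genes, with Gpx1 and Gpx8 as the exceptions. Mttp-IKO pool 1 had the highest Mttp-IKO value for 7 of the 10, the exceptions being Gclm, Gpx1 and Gpx8, and Gpx1 was at its lowest there. Mttp-IKO pool 3 had the lowest Mttp-IKO value for 6 genes (Gss, G6pdx, Gpx3, Gpx4, Gpx7 and Gpx8). The same number in the 2 genotypes does not mark a shared batch by the labels.

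A core motif of the antioxidant response element, TGACNNNGC, was looked for on both strands in RefSeq promoter windows (GRCm38.p6), 250 bases before to 50 bases after the start. It was present in 12.4% of 32851 windows of this length. Of the 10 genes, 8 were in the table, with 11 windows, and 2 held a match, both on the strand opposite to the gene. The match in Gclm is GCACCGTCA, starting 134 bases before the start site, and that in G6pdx is GCTCAGTCA, starting 57 bases before it. Neither gene passed the threshold. Gclc and Gsr had no window in the table used here and were not searched.

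Other genes of glutathione and selenium biology, from lists written alongside these 10, were examined in the same fit. Of 60 such genes 58 were tested, and 3 were past the threshold, all lower. These 3 are 5.17% of those tested, beside 3.09% of all genes lower and 4.01% changed in either direction. The median log2 fold change of the 58 genes was -0.18. In the list of 17 genes for glutathione breakdown and for transport of cysteine or glutathione, 1 was lower and none higher. This was Abcc1, an exporter of glutathione and its conjugates, with 34.6, 18.6 and 32.3 CPM in WT and 12.2 ± 1.20 CPM over Mttp-IKO pools, without overlap, with a log2 fold change of -1.22 and adjusted p = 0.0390 (edgeR, standard error 0.246). Slc25a39, a mitochondrial glutathione carrier and the list's most abundant gene per length, was at 593 ± 8.03 CPM in WT liver and 602 ± 39.4 CPM in Mttp-IKO liver (edgeR: log2 fold change 0.021, adjusted p = 0.955).

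Of 18 other selenoproteins, 17 were tested and 2 were lower. Selenow, a small selenoprotein of the thioredoxin-like fold, had 63.5, 58.1 and 54.4 CPM in WT and 19.0, 18.6 and 29.0 CPM in Mttp-IKO pools. Its log2 fold change of -1.40 (standard error 0.204, adjusted p = 0.0184, edgeR) was of the same order as that of Gpx1, with no overlap between genotypes. Selenon, a selenoprotein of the endoplasmic reticulum, had 14.4, 9.28 and 12.8 CPM in WT and 4.32, 4.66 and 6.91 CPM in Mttp-IKO pools, without overlap (edgeR: log2 fold change -1.20, standard error 0.256, adjusted p = 0.0451). Selenop, the selenium carrier that liver secretes into plasma, was the most abundant, at 4225 ± 364 CPM in WT and 4178 ± 982 CPM in Mttp-IKO pools (edgeR: log2 fold change -0.016, adjusted p = 0.977).

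All 3 of these calls (Abcc1, Selenow and Selenon) ended without WT pool 1, WT pool 3, Mttp-IKO pool 1 or Mttp-IKO pool 2, and Abcc1 also missed the threshold without Mttp-IKO pool 3 (log2 fold change -1.27, adjusted p = 0.0514, edgeR). Selenow and Selenon were called without that pool (-1.64 and -1.44 on the log2 scale). Removing the length trend ended the call of Selenow (-1.13, adjusted p = 0.0570, edgeR), and removing length and GC trends ended those of Selenow (0.0823) and Selenon (0.0646). With limma-voom, Abcc1 (adjusted p = 0.0613) and Selenon (0.0556) also missed the threshold.

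None of the 7 genes of selenocysteine synthesis and insertion passed the threshold (edgeR, 1 with an unadjusted p under 0.05), and their median log2 fold change was 0.14. Sephs2, which makes the selenium donor, had 311 ± 70.7 CPM in WT and 402 ± 85.9 CPM in Mttp-IKO pools (adjusted p = 0.387, edgeR). The 11 genes of NADPH supply (median -0.25, 3 with an unadjusted p under 0.05) and the 4 glutaredoxins (median -0.02, 0 with an unadjusted p under 0.05) also gave no call. The most abundant of each were H6pd (569 ± 19.0 and 747 ± 228 CPM, adjusted p = 0.365, edgeR) and Glrx5 (68.6 ± 5.62 and 60.6 ± 17.4 CPM, adjusted p = 0.673, edgeR), WT first.

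Of the 3 other peroxidase paralogs, named here after their values were seen, Gpx5 was too low to test. Gpx6 had 1.49, 2.88 and 2.15 CPM in WT and 5.47, 10.8 and 3.73 CPM in Mttp-IKO pools, and was the only one of the 8 peroxidase genes with all Mttp-IKO pools above all WT pools (edgeR: log2 fold change 1.62, standard error 0.430, adjusted p = 0.0762). Gpx6 passed the threshold, as higher, with DESeq2 (adjusted p = 0.0035), with no filter (0.0474, edgeR) and without Mttp-IKO pool 3 (0.0424, edgeR). It also passed with the length trend removed (0.0441, edgeR) and with length and GC trends removed (0.0473, edgeR). Gpx6 missed the threshold with limma-voom (0.102) and with total counts (0.0779, edgeR). Leaving out any other single pool also ended the call (0.0909 to 0.262, edgeR), with a log2 fold change of 1.09 without Mttp-IKO pool 2. Gpx2, the gastrointestinal peroxidase, had 2.30, 1.55 and 0.624 CPM in WT and 0.322, 0.343 and 0.251 CPM in Mttp-IKO pools without overlap (edgeR: log2 fold change -2.27, standard error 0.534, adjusted p = 0.0574). Gpx2 passed the threshold, as lower, with DESeq2 (adjusted p = 0.0035), with no filter (0.0347, edgeR) and with total counts (0.0408, edgeR). It missed the threshold with limma-voom (0.120) and in every fit that left out a pool (0.0743 to 0.209, edgeR). Gpx2 passed the filter on low counts through its WT pools, since 1 of the 3 Mttp-IKO pools reached the minimum in CPM before TMM scaling. Its own difference thus helped it into the test.

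Among markers of cells other than hepatocytes, the stellate cell and fibroblast list and the macrophage and Kupffer cell list moved with the genotypes. Of 8 stellate cell and fibroblast markers 5 were lower past the threshold (edgeR), with a median log2 fold change of -1.76. Their summed level was 859.8 to 1527 CPM in WT and 460.1 to 516 CPM in Mttp-IKO pools. The collagen genes Col1a1 (log2 fold change -3.72, adjusted p = 0.0159, edgeR) and Col3a1 (-3.93, adjusted p = 0.0111) had the largest changes, and Lum, Pdgfrb and Lrat were the other 3 called. Of 7 macrophage and Kupffer cell markers Lyz2 was lower (log2 fold change -1.80, adjusted p = 0.0285, edgeR) and Timd4, a marker of resident Kupffer cells, was higher (1.16, adjusted p = 0.0425). The 6 markers other than Timd4 had negative log2 fold changes, among them Clec4f (-0.19, adjusted p = 0.503, edgeR) and Cd5l (-0.74, adjusted p = 0.214). The list had a summed level of 624 to 1066 CPM in WT and 364 to 578 CPM in Mttp-IKO pools. The defining markers Adgre1 (-0.98, adjusted p = 0.0895, edgeR) and Csf1r (-0.62, adjusted p = 0.174) did not pass.

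The 6 hepatocyte markers, which fit the labelled tissue, summed to 53614 to 89273 CPM in WT and 106398 to 161740 CPM in Mttp-IKO pools, without overlap. None passed the threshold (edgeR, 4 with an unadjusted p under 0.05), and Alb (log2 fold change 0.95) and Apoa1 (0.98) had adjusted p = 0.157 and 0.153 (edgeR). Ttr went the other way (-0.55, adjusted p = 0.290, edgeR), with all Mttp-IKO pools below all WT pools. Alb made up most of the sum, and the other 5 markers summed to 13527 to 20342 CPM in WT and 21707 to 29646 CPM in Mttp-IKO pools. The other lists overlapped between genotypes and held no call (edgeR): 5 endothelial markers (292 to 349 and 303 to 354 CPM, WT first, 0 with an unadjusted p under 0.05), 5 cholangiocyte markers (68.7 to 193 and 48.6 to 93.9 CPM, 2 with one), 4 small intestine markers (1268 to 2430 and 802 to 2908 CPM, 0 with one) and 4 erythroid markers (271 to 371 and 199 to 327 CPM, 0 with one). Apoa4 made up most of the small intestine sum, at 1228 to 2389 CPM in WT and 790 to 2875 CPM in Mttp-IKO pools. Of the defining pairs, Pecam1, Stab2, Krt19, Krt7, Vil1, Fabp2, Hbb-bs and Hba-a1 were all detected. Vil1 was low, at 1.29 to 3.21 CPM in WT and 1.67 to 2.84 CPM in Mttp-IKO pools, and Fabp2 was at 31.9 to 40.2 and 8.30 to 30.8 CPM. The part of these cell types in the lower Gpx1, Gpx7, Abcc1, Selenow and Selenon was not tested.

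**Figure D4:**
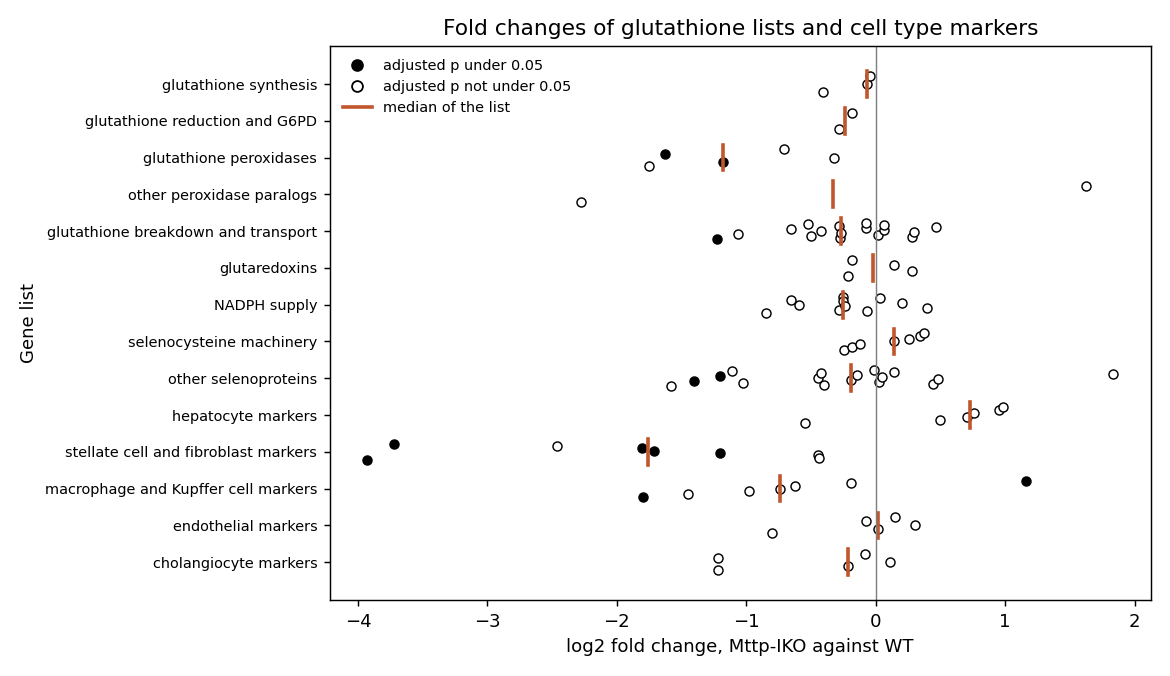
The log2 fold change, Mttp-IKO against WT (edgeR), of every tested gene in the glutathione and selenium lists and in 5 cell type marker lists. Points are genes, filled where the adjusted p was under 0.05, and vertical bars are list medians. The peroxidases (median -1.18) and the stellate cell and fibroblast markers (median -1.76) lie furthest to the left, and the hepatocyte markers (median 0.73) furthest to the right.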

How the data were processed

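The authors sequenced ribosome-depleted liver RNA (KAPA RiboErase) of 3 WT and 3 Mttp-IKO pools, aligned reads with STAR 2.5.1a to Ensembl release 76 (GRCm38) and counted unambiguous, uniquely aligned reads per gene with featureCounts 1.4.6-p5, per the methods and the submitters' processing notes. They deposited raw counts per gene, with CPM and RPKM that follow from the counts, so only counts were tested. Reads with several matches were left out, which lowers near-identical copies.

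The fit used all 17287 genes kept by filterByExpr (minimum count 10, minimum total 15), TMM scaling and edgeR 4.0.16 (glmQLFit, glmQLFTest) in R 4.3.3. Adjusted p-values are Benjamini-Hochberg over all these genes, with a threshold of 0.05. The standard error is the absolute log2 fold change over the square root of F. RPKM used the deposited gene lengths. Ratios were compared by two-sided exact permutation over pools. Scripts were tested on simulated counts.

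The members and lists were chosen with earlier results of these data known. The text names all 10 members, each other list's calls and its most abundant gene per length, the first 2 markers of each cell type, and overlapping or near-identical genes. Gpx2, Gpx5, Dio3, Ttr, Apoa4, Clec4f, Cd5l and the called markers beyond the first 2 were named after their values were seen. Alternatives were other scalings (DESeq2 size factors, total counts, upper quartile), DESeq2 1.42.0, limma-voom (limma 3.58.1), no filter, protein-coding genes only, thresholds of 0.1 and 0.01, a replicate block, removal of trends with length (loess, span 0.3) and GC content, and leaving out each pool. Figures were drawn with matplotlib 3.10.9.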

Additional observations from a re-analysis of the deposited data

How the results depend on the processing

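The count of 2 glutathione genes past the threshold was 1 with length and GC trends removed (chosen after seeing the data; Gpx7 alone) and 0 at a threshold of 0.01; with 1 pool left out it ran from 0 to 2. It was 0 without WT pool 1, WT pool 3, Mttp-IKO pool 1 or Mttp-IKO pool 2, with 3 to 5 of the 10 at an unadjusted p under 0.05, beside 14.0% to 24.8% of all genes in these fits. With all pools it was 5 of the 10, beside 23.0%. The series-wide count, 694, was also low in these fits (0 to 55), and at least 864 without WT pool 2 or Mttp-IKO pool 3. The count was 3, with Gpx8 added, with total counts, with DESeq2 and at a threshold of 0.1. The log2 fold changes of Gclm, Gsr, G6pdx and the 5 peroxidases stayed negative under all 17 alternatives.

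The sign of Gclc turned with the length trend removed (0.071), also with a replicate block (0.010), with length and GC trends removed (0.020) and in leaving out pools (-0.44 to 0.20). Gss turned with the length trend removed (0.023) and in leaving out pools (-0.25 to 0.058). The median over all genes was itself 0.12 with the length trend removed, 0.095 with a replicate block added and 0.11 with length and GC trends removed. Gclc and Gss lay below that median in each of these fits, so their turned signs there are not a rise against other genes. The cause was not tested.

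The count of 3 other glutathione and selenium genes was 5 with total counts and with no filter, 9 with DESeq2, 1 with limma-voom, 7 at a threshold of 0.1, 0 at 0.01, and 0 to 5 with 1 pool left out (0 without WT pool 1, WT pool 3, Mttp-IKO pool 1 or Mttp-IKO pool 2; 5 without Mttp-IKO pool 3). Of these, 2 of the 9 with DESeq2 (Gpx6 and Dio3), 1 of the 5 with no filter (Gpx6) and 1 of the 5 without Mttp-IKO pool 3 (Gpx6) were higher, as were 2 of the 7 at 0.1 (Gpx6 and Dio3). With the length trend removed, with or without a replicate block, the count stayed 3, but 2 were lower and Gpx6 was higher. With length and GC trends removed it also stayed 3, with 1 lower (Abcc1) and Gpx6 and Dio3 higher. The 3 ratios kept their direction.

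Pool numbers are shared by the genotypes, but deviations of same-numbered pools correlated at 0.139, 0.112 and 0.0070, so they were not taken as pairs. With the replicate block the counts were 2 and 2 (Selenon lost, adjusted p = 0.0502, edgeR), and 595 over all genes. The median log2 fold change of all genes, 0.0059, was -0.17 with total counts and 0.12 with the length trend removed. Gpx8, at 4 to 14 reads in Mttp-IKO pools, is limited by depth.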
